A study of Homo sapiens with 10 samples.

Results

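Glutathione is a tripeptide of glutamate, cysteine and glycine that serves as the main soluble thiol of animal cells. Glutamate-cysteine ligase, a dimer of the catalytic subunit GCLC and the modifier subunit GCLM, makes the first bond, and glutathione synthetase, GSS, adds the glycine. Glutathione transferases couple the thiol to electrophiles, and glutathione peroxidases spend it to reduce peroxides. Conjugates of glutathione with acrolein and with the mustard released from cyclophosphamide are known routes by which cells dispose of this alkylating prodrug.

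The genes described here are those of glutathione synthesis (GCLC, GCLM and GSS), 2 cytosolic transferases (GSTP1 and GSTO1), the microsomal transferases (MGST1, MGST2 and MGST3) and 2 peroxidases (GPX1 and GPX4). Every probe set that the platform annotation assigns to one of these 10 genes was taken, which gave 10 of the 12558 probe sets tested and 9 of the 8226 genes represented. GSTP1 had 2 probe sets and each of the other 8 genes had 1, while no probe set is named MGST1 in that annotation. None of the 10 probe sets was shared with another gene by its annotation. Probe set names on this array carry a suffix: "_s_at" marks one whose probes may match more than 1 transcript, and "_r_at" one that departs from some of the maker's design rules. The GPX1 probe set and one of the GSTP1 probe sets are of the first kind, and those of GCLM and GSS are of the second.

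The 10 arrays measured total RNA of human chronic myeloid leukaemia (CML) cells, a leukaemia line in culture. Of these, 5 arrays carry the label sensitive and 5 the label resistant, for a subline resistant to cyclophosphamide. All cells were kept in culture medium. The labels give neither the name of the line, nor how resistance was raised, nor whether the subline is 1 clone, nor whether the drug was present when RNA was taken. They do not say whether the 5 samples of a group were separate cultures, so a p-value covers only the scatter of these samples, part or all of which may be technical.

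Each array gave 1 signal per probe set, an intensity on a linear scale, at a common trimmed mean of 2501.33 to 2501.51. A background limit was set per array at the 95th percentile of 32 control probe sets without a human target, and 51% to 61.3% of probe sets exceeded it. Of 11 haematopoietic marker genes measured, 9 lay above the limit on at least 3 sensitive arrays and 8 on at least 3 resistant arrays, PTPRC (CD45) among both. KIT was above it on no array, and MPO on 1 sensitive and 2 resistant arrays. Of 13 markers of epithelium, fibroblasts, endothelium, liver, glia and muscle, 2 and 1 did so, and 9 were above the limit on no array. The keratin gene KRT8 was the marker above the limit on all 10 arrays. The summed signal of the 13 ran from 4677 to 9521 in sensitive and from 4809 to 7351 in resistant arrays, and none of the 13 was called. KRT8 alone had means of 4838 in sensitive and 4404 in resistant arrays, so the sum largely follows this 1 gene. In bulk RNA, fewer cells of a type and less RNA per cell cannot be told apart.

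Known control of several glutathione genes runs through the antioxidant response element, the DNA site of the factor NRF2, whose core is written TGACNNNGC. The 300-base RefSeq promoter windows of assembly GRCh38.p14, 250 bases before to 50 after a gene's start, were searched for it on both strands. The matches are shown because the members differ in holding one, so the shares that follow are descriptions and cannot be read as an excess. Of 35116 windows of all genes, 13.3% held a match. The table has windows for 8 of the 10 genes, 12 in all, of which 4 (33.3%) held one. Windows of 3 measured genes, GSTO1, GSTP1 and GCLM, contained the motif. In the lines that follow, capitals mark the matched motif, read 5′ to 3′.
GSTO1, chr10:104254660-104254680, plus strand: gagggaTGACTGAGCatttat
GSTO1, chr10:104254725-104254745, plus strand: atgcttTGACACAGCccctta
GSTP1, chr11:67583740-67583760, plus strand: gcgccgTGACTCAGCactggg
GCLM, chr1:93909450-93909470, plus strand: agacaaTGACTAAGCagaaat

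The first motif base lay 66 bases before the GSTP1 start. For GSTO1 it lay 226 and 161 bases before the transcript start that the promoter table uses. The RefSeq gene table lets GSTO1 begin farther upstream, so both matches fall inside the span of the gene there. GCLM is transcribed from the minus strand, so its match reads on the opposite strand, and the motif base farthest from the start lay 34 bases before it. A window of MGST1, which has no named probe set, held the remaining match, 30 bases after one of its starts. The motif letters were absent from the windows of GCLC, GPX1, GPX4 and MGST3. A match is a description of these letters and not a measured binding site. The genes that hold one had unlike values on the arrays, as given below for GSTO1, GSTP1 and GCLM.

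Among the 10 probe sets, GSTO1 rose and GPX1 fell in resistant cells, at ratios of the group means of 2.01 and 0.661, and both passed the test. The other 8 were not called. The comparison asked which transcripts differ between sensitive and resistant cells. It was tested with limma on log2(signal + 114.8), with Benjamini-Hochberg adjustment over all 12558 probe sets and a call at an adjusted p under 0.05. By this rule 7.41% of all probe sets were called, 4.42% higher and 2.99% lower, against 1 higher and 1 lower of the 10 here. The groups did not overlap in the same 2 of 10 probe sets, against 8.5% of all. The log2 differences ran from -0.61 to 1.01 with a median of -0.13, 5 above 0 and 5 below, against a median of 0.03 over all probe sets. At an unadjusted p under 0.05 there were 2 higher and 3 lower, 5 of 10, where 17.9% of all probe sets reached that level. The genes were chosen with earlier results of these data known, so these shares are descriptions and not a test.

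**Figure D1:**
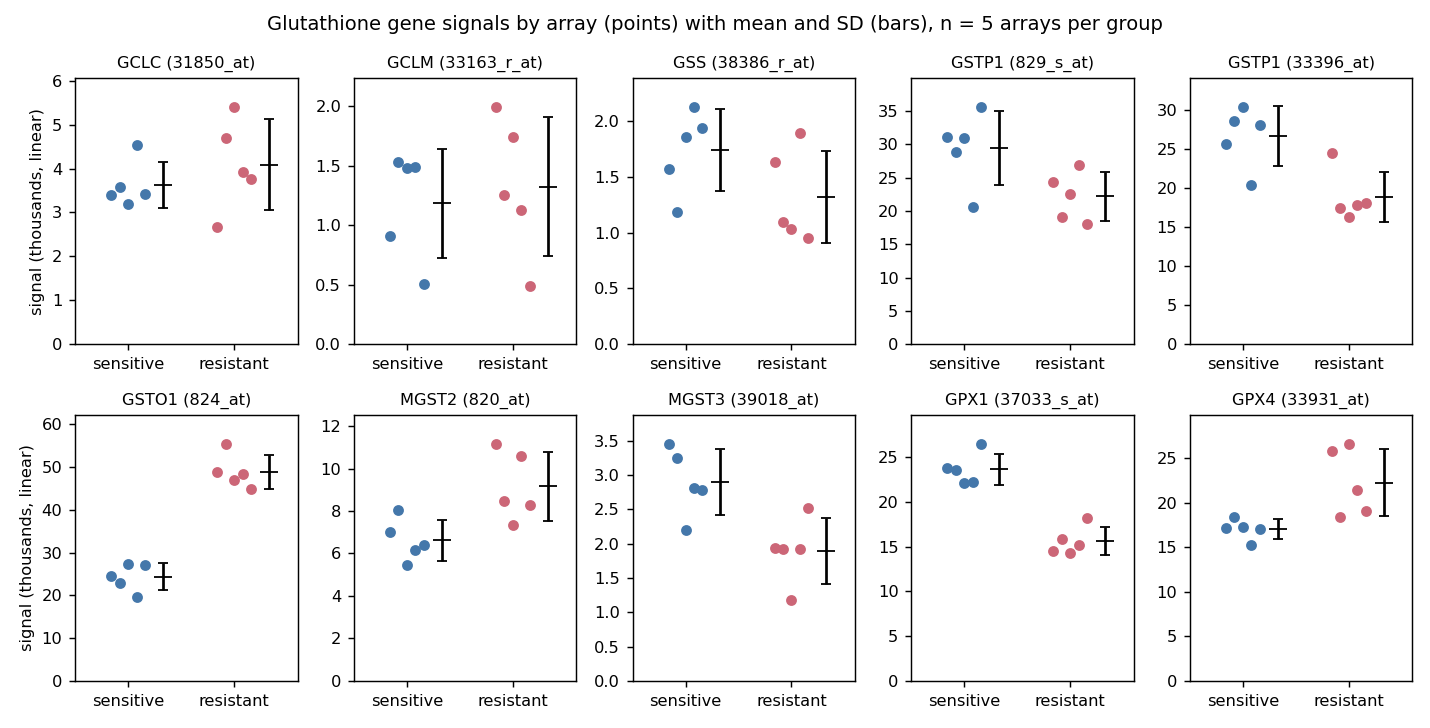
Signal of each glutathione gene probe set on a linear scale (y axis) on the 5 sensitive and 5 resistant arrays (points), with the mean and SD beside each group. GSTO1 and GPX1 are the panels whose groups do not overlap.

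GSTO1 encodes the omega class transferase, which has a cysteine in its active site and acts as a thioltransferase and dehydroascorbate reductase more than as a conjugating enzyme. Its signal in sensitive replicates 1 to 5 was 24564, 22919.5, 27364, 19703 and 26997. In resistant replicates 1 to 5 it was 48825, 55445, 47006, 48325 and 44725. The lowest resistant array stood far above the highest sensitive one, and the resistant arrays were the more uniform, with a coefficient of variation of 8.2% against 13.0%. The ratio of the group means was 2.01, from 24309.5 ± 3153 to 48865 ± 4006 (SD, n = 5 each). The log2 difference was 1.01 (95% interval 0.65 to 1.37, adjusted p = 0.00209, limma), larger in size than that of 93% of all probe sets. The call held when any 1 array was left out, at adjusted p-values of 0.00323 to 0.00829. None of the 6 measured genes nearest to GSTO1 on its chromosome was called, and their log2 differences ran from -0.71 to 0.33. Over all members 5 of 54 such neighbours were called, where 8.4% of all genes were.

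GSTP1 is the pi class transferase, the main cytosolic form in many blood cells and tumours, which conjugates electrophiles such as acrolein. By its _at probe set the signal was 25716, 28693, 30447, 20454 and 28078 in sensitive replicates 1 to 5. In the resistant replicates it was 24537, 17452, 16319.6, 17913 and 18166. Resistant replicate 1 lay above sensitive replicate 4, and the groups were otherwise apart, with a log2 difference of -0.50 (95% interval -0.90 to -0.10, adjusted p = 0.156, limma). By its _s_at probe set the sensitive values were 31142, 28783, 30938, 20547 and 35599, and the resistant ones 24351, 19108, 22546, 26833 and 18007. Here 3 resistant arrays lay above the lowest sensitive array, which was replicate 4 in both probe sets. The log2 difference was -0.40 (95% interval -0.83 to 0.04, adjusted p = 0.331, limma). Both probe sets thus had the lower mean in resistant cells, at ratios of 0.708 and 0.754, and neither was called. Both intervals lie below the rise measured for GSTO1.

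The microsomal transferases are membrane proteins of the MAPEG family. MGST2 can also make leukotriene C4, and MGST3 has transferase and peroxidase activity. The signal of MGST2 was 7025, 8042, 5468, 6165 and 6414 in sensitive replicates 1 to 5 and 11172, 8454, 7344, 10576 and 8288 in resistant ones. Of the resistant arrays, 4 lay above the highest sensitive array. Replicate 3 was the lowest array of each group. The log2 difference of MGST2 was 0.46 (95% interval 0.05 to 0.86, adjusted p = 0.206, limma).

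MGST3 had the opposite sign. Its signal was 3456, 3246, 2198, 2810.0 and 2785 in sensitive replicates 1 to 5, and 1938, 1923, 1174, 1916 and 2522 in the resistant ones. Only resistant replicate 5 reached into the sensitive range, and sensitive replicate 3 and resistant replicate 3 were again the lowest of their groups. The log2 difference was -0.61 (95% interval -1.08 to -0.13, adjusted p = 0.14, limma), as large in size as that of GPX1 with a wider spread. With n = 5 against 5, an exact two-sided permutation test gave p = 0.0159 for each of MGST2, MGST3, GPX4 and the GSTP1 _at probe set, unadjusted. The smallest p this test can give is 0.00794.

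GPX1 encodes the abundant cytosolic peroxidase, a selenoprotein that reduces hydrogen peroxide. Its signal was 23765, 23537, 22156, 22209 and 26533 in sensitive replicates 1 to 5. In resistant replicates 1 to 5 it was 14578, 15862, 14273, 15221 and 18196. All resistant arrays lay below all sensitive ones, and replicate 5 was the highest array of each group. The group means were 23640.0 ± 1778 and 15626 ± 1562 (SD, n = 5 each), a ratio of 0.661 and a log2 difference of -0.60 (95% interval -0.94 to -0.26, adjusted p = 0.0372, limma). The call is marginal: without any 1 of 9 arrays, all but resistant replicate 5, the adjusted p lay above 0.05 and reached 0.0858, at log2 differences of -0.62 to -0.55. With the replicate number as a block the adjusted p was 0.08. None of the 6 measured genes nearest to GPX1 was called, where 8.4% of all genes were. Their log2 differences ran from -0.53 to 1.30.

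GPX4 encodes the peroxidase that reduces phospholipid hydroperoxides in membranes and thereby holds off ferroptosis, an iron-dependent cell death. It is a selenoprotein like GPX1. The signal of GPX4 was 17106, 18397, 17316, 15231 and 17080.3 in sensitive replicates 1 to 5, a narrow range, and 25735, 18362, 26613, 21414 and 19054 in resistant ones. Resistant replicate 2 lay just under the highest sensitive array, and the other 4 lay above it. The log2 difference was 0.37 (95% interval -0.01 to 0.74, adjusted p = 0.289, limma), and GPX4 was not called.

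None of the 3 synthesis genes was called, and the groups overlapped for each. GCLC had signals of 3397, 3584, 3183, 4539 and 3428 in sensitive replicates 1 to 5 and of 2674, 4695, 5403, 3922 and 3759 in resistant ones. The resistant arrays held both the lowest and the highest value of the 10, and the log2 difference was 0.14 (95% interval -0.31 to 0.60, adjusted p = 0.812, limma). The interval of GCLC excludes a rise as large as that of GSTO1, and its test does not show that the lines are alike.

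GCLM was 909.7, 1529, 1482, 1492 and 504 in sensitive replicates 1 to 5, and 1996, 1258, 1742, 1130.4 and 488 in resistant ones. Its replicate 5 was the lowest array of each group, and resistant replicate 5 was the single one of the 100 readings of the 10 probe sets that was not above the background limit. The coefficient of variation of GCLM was 38.7% and 44.2%, the widest of the 10 probe sets in either group. Its log2 difference of 0.12 (95% interval -0.70 to 0.93, adjusted p = 0.922, limma) changed sign with quantile normalization and with single arrays left out. A rise of the size of that of GSTO1 would lie just outside the interval.

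GSS was 1574, 1186, 1862, 2128 and 1942 in sensitive replicates 1 to 5 and 1633, 1099, 1033, 1891 and 954 in resistant ones. Of the resistant arrays, 3 lay below every sensitive array and the other 2 lay within their range. The log2 difference of GSS was -0.39 (95% interval -0.90 to 0.12, adjusted p = 0.445, limma).

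**Figure D2:**
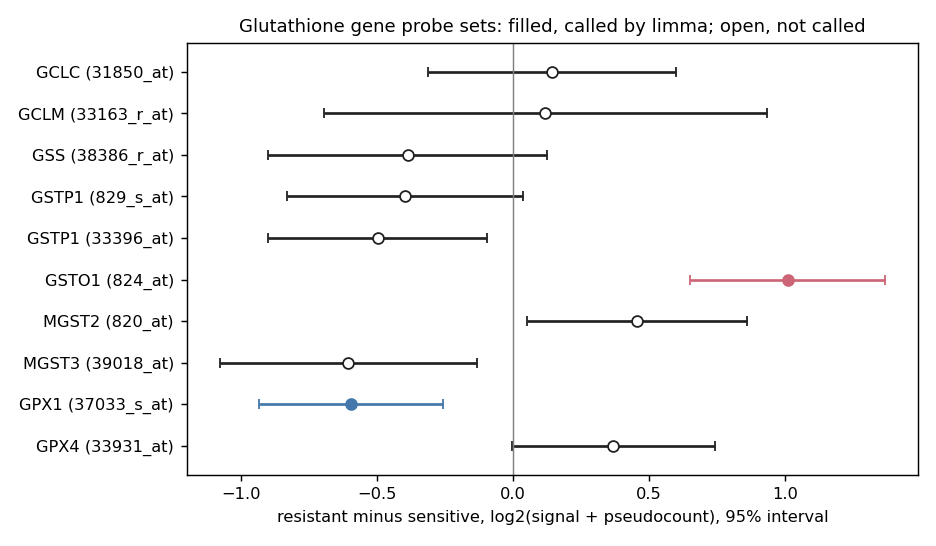
Resistant minus sensitive difference of each glutathione gene probe set on the log2(signal + pseudocount) scale (x axis), with its 95% interval from limma; filled points were called. GSTO1 at 1.01 and GPX1 at -0.60 are filled, and the intervals of GCLC, GCLM, GSS, GPX4 and 1 GSTP1 probe set include 0.

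A ratio of 2 signals on the same array does not depend on how arrays were scaled. The ratio itself depends on the probes and has no meaning as a level, but its change between arrays compares the changes of 2 signals. The pairs were chosen after the values had been seen, so their ratios are described without a test. All pairs but GCLC to GCLM set a gene with a positive log2 difference against one with a negative difference, which favours a separation. The ratio of GPX4 to GPX1 was 0.72, 0.782, 0.782, 0.686 and 0.644 in sensitive replicates 1 to 5 and 1.77, 1.16, 1.86, 1.41 and 1.05 in resistant ones. All resistant arrays lay above all sensitive arrays, with a mean log2 change of 0.97.

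The ratio of MGST2 to MGST3 was 2.03, 2.48, 2.49, 2.19 and 2.3 in sensitive replicates 1 to 5, and 5.77, 4.4, 6.26, 5.52 and 3.29 in resistant ones. Its groups did not overlap either, and the mean log2 change was 1.10. GSTO1 to GSTP1, by the brighter GSTP1 probe set, was 0.758 to 0.959 in sensitive and 1.8 to 2.9 in resistant arrays, a mean log2 change of 1.41. The groups overlapped for GCLC to GCLM and for GCLC to GSS, with log2 changes of 0.02 and 0.57.

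**Figure D3:**
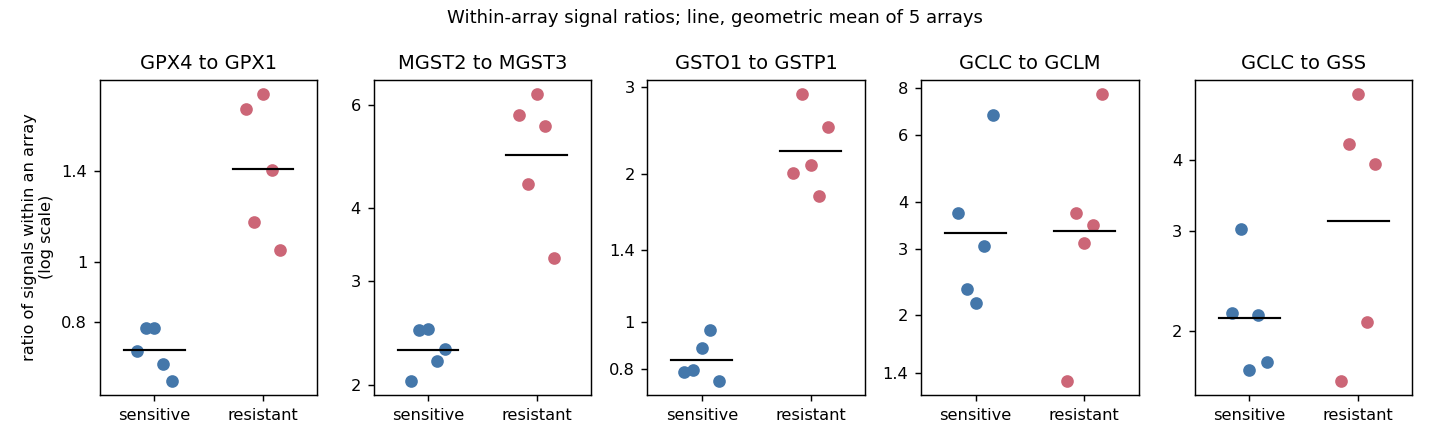
Ratio of 2 glutathione gene signals within each array (y axis, log scale) on 5 sensitive and 5 resistant arrays (points), with the geometric mean (line). GPX4 to GPX1, MGST2 to MGST3 and GSTO1 to GSTP1 separate the groups, and the 2 ratios of synthesis genes do not.

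Other genes that use, supply or break down glutathione were counted from a list of 59, of which 29 were measured by a probe set of their own. The shared probe sets cover a further 8. Of the 29, 2 were called higher (HPGDS and CBS) and 2 lower (ALOX5AP and ANPEP), with a median log2 difference of 0.08. That is 13.8% called, where 8.4% of all 8226 genes were, 4.94% higher and 3.46% lower. The list was made with earlier results of these data known, so its share cannot be read as an excess. The list holds more than 1 function, and the genes called are not all enzymes of glutathione chemistry.

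Among transferases outside the members, 2 probe sets shared by the mu class genes GSTM1, GSTM2 and GSTM4 were called higher, and which of the 3 genes gave the signal cannot be told apart. By the _at probe set the signal was 1005, 1137, 543, 2463 and 2659 in sensitive replicates 1 to 5 and 4411, 3661, 4502, 5066 and 5401 in resistant ones, with no overlap. Its log2 difference was 1.68 (95% interval 0.90 to 2.47, adjusted p = 0.0125, limma). By the _s_at probe set it was 0.97 (adjusted p = 0.0326), with means of 2688 ± 912 and 5129 ± 448 (SD, n = 5 each). That second call was lost without any 1 of 7 arrays, at adjusted p-values of up to 0.0754, and with arrays scaled to a common median, at 0.0915. GSTM3, named after its values were seen, was called in 1 of its 3 probe sets, at a log2 difference of 1.10 (adjusted p = 0.0461, limma). The other 2 had 0.83 and 0.26. GSTM5, also of the mu class and likewise named afterwards, was not called by either probe set. Its log2 differences had opposite signs, 0.37 and -0.69 (adjusted p = 0.490 and 0.285, limma).

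HPGDS, the sigma class transferase that makes prostaglandin D2 and is known from mast cells and eosinophils, rose from 352 ± 199.6 to 1379 ± 288 (SD, n = 5 each; adjusted p = 0.00356, limma). On 1 sensitive array it was above the background limit. GSTZ1, the zeta class enzyme of tyrosine breakdown, had means of 2219 ± 367 and 1198 ± 485 (SD, n = 5 each), a log2 difference of -0.90 that missed the threshold (adjusted p = 0.0653, limma) and passed it in 6 alternatives, among them both other scalings. The shared probe sets of alpha class genes (GSTA1, GSTA2 and GSTA3) and of theta class genes (GSTT2 and GSTT2B) were above the limit on no array or on 1, so no change could be measured there.

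ALOX5AP belongs to the same membrane family as the microsomal transferases but presents arachidonic acid to 5-lipoxygenase and conjugates nothing. It fell from 5307 ± 3695 to 165 ± 128 (SD, n = 5 each; log2 difference -4.11, adjusted p = 0.000105, limma), and 1 resistant array was above the limit. With the other pseudocounts the difference of ALOX5AP ran from -4.70 to -3.12. ANPEP, the myeloid surface peptidase CD13, which splits the dipeptide left when glutathione is broken down, had a log2 difference of -1.61 and was called lower (adjusted p = 0.0211, limma). It was above the limit on 1 resistant array, and its difference ran from -1.87 to -1.13 with the other pseudocounts. Its call was lost without any 1 of 3 arrays, at adjusted p-values of up to 0.0566. Both are also markers of myeloid cells. Of the 11 haematopoietic markers measured, LAPTM5 was called higher and LCP1 and CORO1A lower, 27.3% against 8.4% of all genes. These markers too were listed with earlier results of these data known, so the share is a description only. The summed signal of the 11 ran from 91438 to 137232 in sensitive and from 97280 to 132044 in resistant arrays. SPI1, a myeloid transcription factor, was above the limit on 5 sensitive arrays and on 0 resistant arrays, at least 1.23-fold lower there, and was not called (adjusted p = 0.0529, limma). The part of these markers in the falls of ALOX5AP and ANPEP was not tested.

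For cysteine supply, CBS, the first enzyme that turns homocysteine towards cysteine, rose from 2019 ± 666 to 4336 ± 1159 (SD, n = 5 each; log2 difference 1.08, adjusted p = 0.0263, limma), a call lost without any 1 of 6 arrays, at adjusted p-values of up to 0.0705, and with arrays scaled to a common median, at 0.0674. CTH, also of cysteine supply and named after its values were seen, had a log2 difference of 1.07 (95% interval 0.32 to 1.82, adjusted p = 0.0960, limma). It was not called, and its groups overlapped. The cystine carrier SLC7A11 was 1769 ± 1007 and 1444 ± 620.1, and its partner SLC3A2 was 16572 ± 4506 and 17106 ± 13688 (SD, n = 5 each), neither of them called (adjusted p = 0.814 and 0.882, limma). The resistant mean of SLC3A2 rests on replicate 3, at 41530.8, and without that array its log2 difference went from -0.17 to -0.56 (adjusted p = 0.192). GSR, the reductase that returns oxidised glutathione to its thiol form, had means of 4409 ± 910.2 and 5184 ± 994 (SD, n = 5 each), with a log2 difference of 0.23 (95% interval -0.22 to 0.67, adjusted p = 0.646, limma). Thus the reductase and the carrier had intervals that include 0.

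The list of NRF2, related factors such as NFE2, its partners and its known target genes held 38 genes, of which 28 were measured. Some of them (PGD, ME1 and others) also belong to wider pathways. Of the 28, 3 were called higher and 2 lower, 17.9% in all, where 4.94% of all genes were called higher and 3.46% lower, 8.4% together. This list too was made with earlier results of these data known, so the share is a description only. The other 23 were not called. At an unadjusted p under 0.05 in limma, 7 of the 28 were higher and 2 lower, where 17.9% of all probe sets reached that level. Those 7 include MAFF, PRDX1 and, by its brightest probe set, ABCC1, which were not called. Their log2 differences were 0.92, 0.38 and 0.55. Also not called were NQO1, TXNRD1, TXN and FTL, with log2 differences of 0.49, -0.33, 0.05 and -0.27. These genes were named after their values were seen. HMOX1 was above the background limit on 0 sensitive arrays and 1 resistant array. NFE2L2, which encodes NRF2 itself, was 8467 ± 1104 and 8599 ± 1544 (log2 difference 0.01, 95% interval -0.38 to 0.41, adjusted p = 0.985, limma). With arrays scaled to a common median its difference was -0.12. KEAP1, the adaptor that marks NRF2 for degradation, had means of 2109 ± 463 and 2942 ± 327 (SD, n = 5 each). Its log2 difference was 0.48, and it was not called (adjusted p = 0.19, limma).

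The genes of that list called higher were CBR3, a carbonyl reductase, BLVRB, which reduces biliverdin, and NFE2, an erythroid and megakaryocytic factor related to NRF2. CBR3 exceeded the limit on 0 sensitive and 4 resistant arrays and was at least 1.2-fold higher in the resistant group. The log2 differences of BLVRB and NFE2 were 1.39 and 1.38 (adjusted p = 0.00662 and 0.0228, limma). The call of NFE2 was lost without any 1 of 4 arrays, at adjusted p-values of up to 0.0612. The 2 genes called lower by a probe set of their own supply NADPH, on which GSR depends. PGD of the pentose phosphate pathway fell from 49359 ± 7204 to 26018 ± 1801 (SD, n = 5 each; adjusted p = 0.00459), and ME1, the malic enzyme, was called lower in the brightest of its 3 probe sets (log2 difference -2.22, adjusted p = 0.00229, limma). That ME1 probe set was above the limit on 3 sensitive arrays and 1 resistant array, its difference ran from -2.97 to -1.31 with the other pseudocounts, and the other 2 ME1 probe sets were above the limit on no array. A probe set shared by AKR1C1 and AKR1C2, aldo-keto reductases, was also called lower, from 1179 ± 412 to 315 ± 272 (SD, n = 5 each; log2 difference -1.76, adjusted p = 0.0179, limma). It is outside the counts of genes and was named after its values were seen. It was above the limit on 5 sensitive arrays and 1 resistant array, its groups overlapped, and which of the 2 genes gave the signal cannot be told apart. The list thus held calls of both signs, and its median log2 difference was 0.15.

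Selenium genes were listed because GPX1 and GPX4 need selenocysteine. Of 26 listed selenoproteins and genes of selenocysteine synthesis, 10 were measured, 0 were called higher in limma and 1 was called lower, a share of 10% near the 8.4% of all genes. At an unadjusted p under 0.05 there were 0 higher and 2 lower, where 17.9% of all probe sets reached that level. The gene called was TXNRD2, the mitochondrial thioredoxin reductase, at 1054 ± 381 and 363 ± 206 (SD, n = 5 each; log2 difference -1.32, adjusted p = 0.0249). It was above the limit on 5 sensitive arrays and on 1 resistant array, and its groups overlapped. The call was lost without any 1 of 6 arrays, at adjusted p-values of up to 0.0678, and with the replicate number as a block, at 0.0943.

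**Figure D4:**
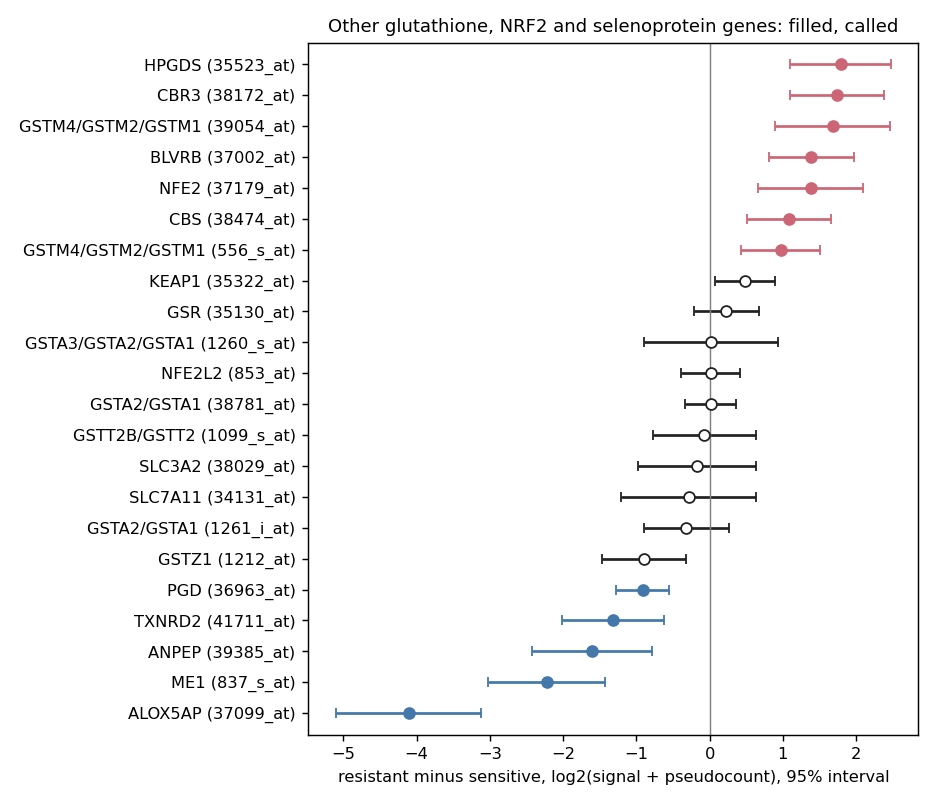
Resistant minus sensitive difference of named genes outside the members on the log2(signal + pseudocount) scale (x axis), with 95% intervals from limma; filled points were called. The shared GSTM probe sets, HPGDS, CBS, CBR3, BLVRB and NFE2 lie above 0, and ALOX5AP, above the background limit on 1 resistant array, lies at -4.11 with the pseudocount used.

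Across the alternatives, GSTO1 stayed past the threshold in all but one and GPX1 in 9 of 20. For GSTO1 the exception was the exact permutation test, whose smallest adjusted p over all probe sets was 0.0934, so that it could call none. The GSTP1 _at probe set was called in 1 alternative, the trend and robust prior of limma, at an adjusted p of 0.0333. GCLC, GCLM, GSS, MGST2, MGST3, GPX4 and the GSTP1 _s_at probe set were called in none of 20 alternatives each.

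**Figure D5:**
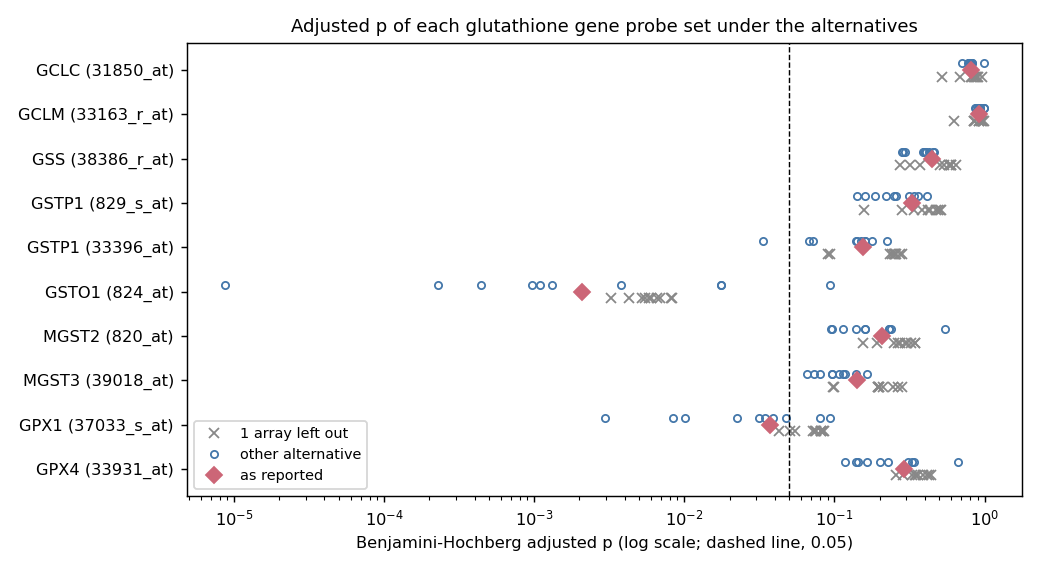
Benjamini-Hochberg adjusted p (x axis, log scale) of each glutathione gene probe set as reported (diamonds), with 1 array left out (crosses) and under the other alternatives (circles); the dashed line marks 0.05. GSTO1 has 1 alternative to the right of the line, and the crosses of GPX1 fall on both sides of it.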

How the data were processed

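Samples were grouped by their titles into 5 sensitive and 5 resistant arrays. The authors deposited 1 linear intensity (a MAS5 signal) for each probe set and array, per the submitters' processing notes; the version and settings of MAS5 are not named there. All 10 columns were used. Of 12625 probe sets, 67 controls were left out. Arrays were scaled to the mean of their 2% trimmed means, log2(signal + 114.8) was taken, 114.8 being the 20th percentile of all signals, and limma 3.58.1 in R 4.3.3 (lmFit, eBayes, two-sided) compared the groups without covariates. The fit was tested on simulated data. The pseudocount makes log2 differences understate changes of dim probe sets. Where every array of a group failed to exceed the background limit, a fold is a bound against the higher of limit and signal per array.

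Names come from the platform's annotation, with symbols updated through Entrez identifiers (RefSeq genes, GRCh38.p14): 10943 carry 1 symbol (10934 matched), 545 several and 1070 none. Each gene counts once, by its brightest probe set on the log2 scale. The members and the lists were chosen with earlier results of these data known. Named are all member probe sets, the listed genes called, GSR, SLC7A11, SLC3A2, NFE2L2, KEAP1, GSTZ1 and the shared GSTM, GSTA and GSTT probe sets. GGT1 has no probe set of its own here. The alternatives were 2 scalings, 2 pseudocounts, a filter, array weights, another prior, exact permutation, gene means, the replicate block and each array left out. No batch is given in the labels. The replicate numbers pair nothing by the labels.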

Additional observations from a re-analysis of the deposited data

Results flagged for a closer look

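In 64 groups of 5 arrays, over the 32 named probe sets, 8 held 1 array whose gap to the next exceeded 0.71 of the group's range. Gaps were taken on the log2(signal + 114.8) scale. For independent normal values about 1 in 20 would be flagged. These probe sets share arrays, so 8 of 64 is not read as an excess. Among the glutathione genes, the GSTP1 _at probe set had 1 such array, resistant replicate 1 at 24537, with the other 4 from 16319.6 to 18166. SLC3A2 stood apart in both groups, in sensitive replicate 3 at 24449.8 (others 13386 to 15696) and in resistant replicate 3 at 41530.8 (others 9376 to 11769). SLC7A11 was lowest in resistant replicate 1, at 394.7 (others 1405 to 1902). BLVRB was highest in resistant replicate 5, at 6635.8 (others 4476.5 to 4822). ME1 was highest in resistant replicate 1, at 347.5 (others 34.4 to 71.2). CBR3 was highest in sensitive replicate 5, at 330.4 (others 41.1 to 89.8). A shared GSTA1 and GSTA2 probe set was highest in resistant replicate 4, at 59.6 (others 16.9 to 26.2), below the background limit.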

How the results depend on the processing

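Exact permutation, whose smallest adjusted p is 0.0934, called 0 glutathione gene probe sets higher and 0 lower, 0 listed genes in either direction and 0 of all probe sets (2246 at an unadjusted p under 0.05), where limma called 1, 1, 5, 5 and 931. With limma's trend and robust prior 2 glutathione gene probe sets were lower and 9 listed genes higher, and with dim probe sets filtered out 9 listed genes were higher. With single arrays left out, the lower glutathione gene probe sets numbered 0 to 1 (1 without resistant replicate 5), listed genes higher 3 to 6 (3 without sensitive replicate 1 or 2 or resistant replicate 1 or 3) and lower 3 to 6 (3 without sensitive or resistant replicate 5). Scaling to a common median moved the median of all probe sets from 0.03 to -0.07, and no member probe set changed sign by it. GCLC and GCLM then had log2 differences of 0.013 and 0.0045.

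Log2 differences near 0 reversed. With quantile normalization GCLM was -0.0030, and with single arrays left out -0.13 to 0.40. NFE2L2 was -0.12 with median scaling, -0.059 with array weights and -0.077 to 0.073 with arrays left out. SLC7A11 ran from -0.45 to 0.083 and the GSTT2 probe set from -0.32 to 0.095 with arrays left out. For the GSTA1 and GSTA2 _at probe set, median scaling, quantile normalization and array weights gave -0.017, -0.012 and -0.00062, and arrays left out -0.056 to 0.045. For the probe set shared with GSTA3 these were -0.037, -0.055 and -0.054, and -0.26 to 0.31. The cause was not tested.

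With the replicate number as a block, 0 glutathione gene probe sets were lower, since GPX1 had an adjusted p of 0.0796, and 794 of all probe sets were called. Deviations from the group mean, over all probe sets, correlated at 0.009 to 0.123 between same-numbered arrays. Between arrays of different number the range was -0.092 to 0.138. Whether the numbers pair samples cannot be told from these values.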
